A study of Mus musculus with 2 samples.

Results

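The Krt14 Areg tumor state comprised 753 of 7532 gated cells from MC38 tumors, taken from 29003 cell barcodes of 2 single-cell RNA-seq libraries. A gated cell had at least 8000 UMIs (unique molecular identifiers, each standing for 1 captured transcript) with at most 20% of them mitochondrial. Its immune genes Ptprc, Tyrobp, Fcer1g and Cd3e together were under 0.03% of UMIs. Its fibroblast genes Col1a2 and Dcn together were under 0.1%, and its endothelial genes Cdh5 and Cldn5 at 1 UMI or fewer. No tumor marker was required, so whether every gated cell was a tumor cell was not tested. The members were selected on measured values, as the 10% of gated cells with the largest summed share of UMIs for Krt14, Areg, Car6, Nppb and Tcim, with both libraries pooled. Levels of those 5 genes in the members are therefore a description of the choice and were given no test.

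MC38 is a mouse colon carcinoma line, grown here as tumors in C57BL/6 mice of both sexes aged 6 to 8 weeks. Tumors were injected with MSA-2, a small-molecule agonist of the innate immune adaptor STING, or with vehicle (saline with 10% DMSO), in 3 doses given 3 days apart, and collected on day 7. The sample without MSA-2 is labelled untreated although the design text gives it the vehicle, and it is called untreated here. Material of 3 mice was pooled, which left 1 library per condition and no replicate, so no test between conditions was possible.

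The untreated library held 198135335 UMIs in 14386 barcodes (median 8372 per barcode) and the MSA-2 library 204387165 UMIs in 14617 barcodes (median 8661). The labels call the material tumor cells, but 5514 untreated and 3163 MSA-2 barcodes with at least 2000 UMIs carried the immune genes at 0.1% of UMIs or more. The libraries shared 53 barcodes, 1 of them a member in the untreated library and 3 in the MSA-2 library. All intervals below are exact 95% intervals that cover counting error only.

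The gate kept unequal parts of the libraries. The Col1a2 and Dcn step removed 1047 of 5833 cells (17.95%) from the untreated library and 4005 of 6833 (58.6%, 57.4–59.8%) from the MSA-2 library. The final gate kept 4752 and 2780 cells. Of the barcodes that missed the gate by this step alone, 889 of 1046 untreated and 3431 of 3947 MSA-2 barcodes had Col1a2 by itself under 0.1% of UMIs, so Dcn, a secreted proteoglycan, carried most of the loss. In those MSA-2 barcodes Dcn stood at 2590 counts per 1000000 UMIs (CPM), against 346 CPM in the gated MSA-2 cells. Their Vim, which encodes a mesenchymal intermediate filament, stood at 2574 CPM against 2864 CPM in gated cells, and Mki67, a proliferation marker, at 72.0 against 83.2 CPM. Fibroblast genes were higher in them, with Col1a1 at 811 against 71.4 CPM, Col1a2 at 614 against 42.4 CPM, Lum at 32.0 against 3.46 CPM and Pdgfra at 71.2 against 26.4 CPM. In the untreated barcodes that missed the gate by this step alone, Mki67 stood at 39.2 CPM against 67.9 CPM in gated cells. Which of these barcodes were tumor cells was not tested.

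Amphiregulin, the product of Areg, is made as a membrane protein and shed to bind the epidermal growth factor receptor (EGFR) on the same or neighbouring cells, which activates the RAS-ERK kinase cascade. ERK signalling in turn induces immediate-early transcription factors such as Fos, Jun and Egr1, and phosphatases such as Dusp5 that dampen it. Krt14 encodes a keratin of basal squamous cells, Car6 a secreted carbonic anhydrase, Nppb the precursor of B-type natriuretic peptide, and Tcim a small regulatory protein linked to Wnt signalling.

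Of the 5 genes, Areg and Car6 had a promoter entry that begins at the annotated start of transcription, in the RefSeq promoter table for GRCm38.p6 (the assembly behind mm10). Entries of 4 of the 5 genes were matched by symbol. Those of Krt14 and Nppb begin 1480 and 114 bases from the annotated start and were not used, and Tcim (chr8:24437172-24438946) is named only. The 250 bases before the start of Areg (chr5:91139349-91139598, plus strand) and of Car6 (chr4:150201136-150201385, minus strand) are shown 5′ to 3′ because they stand upstream of the secreted growth factor and the secreted enzyme of the score. Capitals mark a cyclic AMP response element, TGACGTCA.

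Areg: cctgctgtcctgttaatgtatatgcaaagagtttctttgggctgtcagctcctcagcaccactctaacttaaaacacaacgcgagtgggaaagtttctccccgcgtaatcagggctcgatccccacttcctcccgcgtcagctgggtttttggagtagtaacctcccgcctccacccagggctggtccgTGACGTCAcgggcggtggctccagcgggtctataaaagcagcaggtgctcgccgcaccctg

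Car6: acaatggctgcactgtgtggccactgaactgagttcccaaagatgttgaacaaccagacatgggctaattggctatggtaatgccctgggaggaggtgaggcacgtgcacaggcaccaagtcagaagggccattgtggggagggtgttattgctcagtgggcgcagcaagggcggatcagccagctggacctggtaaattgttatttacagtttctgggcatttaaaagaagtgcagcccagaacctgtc

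The match in Areg begins 61 bases before the start site. Both strands were searched for TGACGTCA, for the AP-1 motif TGANTCA and for the TEAD motif GGAATG. Over 32851 promoters of the same length these stood in 1.55%, 6.75% and 12.6%, and the Car6 stretch held none of the letters searched. These matches describe letters in this window and were not tested as binding sites.

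The members had a summed share of 6.04 or more per 10000 UMIs, and the ranking had no gap there. The lowest member stood at 6.0395 and the highest other gated cell at 6.0391 per 10000 UMIs, the 10th on either side at 6.08 and 6.02, and 369 cells lay within 10% of the threshold, 146 of them members. The median member stood at 8.28 per 10000 UMIs without treatment and 7.997 after MSA-2, against 1.096 and 1.26 for the other gated cells. This corresponds to a median of 20 and 17 UMIs of the 5 genes per member, with lowest values of 6 and 5. Of the other gated cells, 19.7% and 19.1% had no UMI of any of the 5 genes. The state is thus the top range of a continuous score, with no gap that sets it apart.

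**Figure D1:**
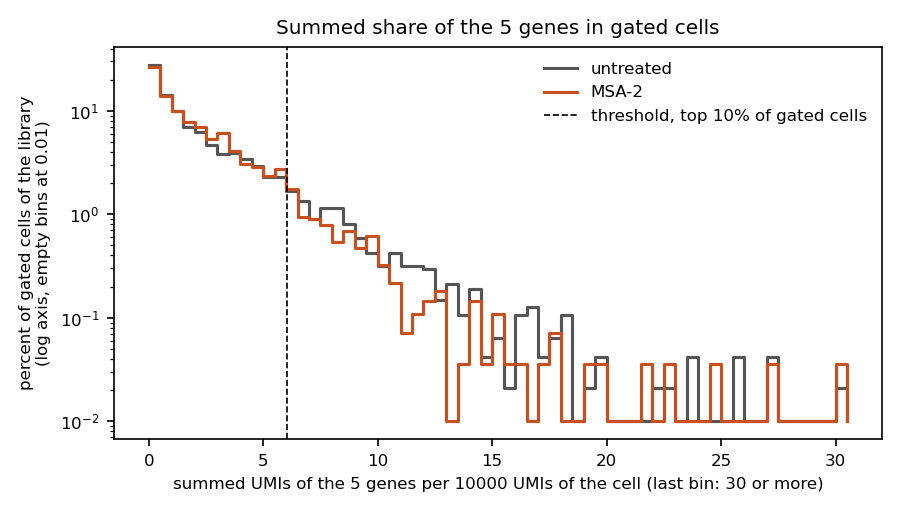
Distribution of the summed share of the 5 genes over gated cells, in UMIs per 10000 UMIs of the cell (x axis), as the percent of each library's gated cells per bin (log y axis); the dashed line is the threshold at 6.04. Both libraries decline without a gap across the threshold, and the last bin holds cells at 30 or more, up to 246 without treatment and 35.3 after MSA-2.

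The members made up 524 of 4752 gated cells in the untreated library (11.03%, 10.15–11.95%) and 229 of 2780 in the MSA-2 library (8.24%, 7.24–9.32%). The ratio of these shares was 0.747 (0.637–0.874), or −0.42 on the log2 scale (−0.65 to −0.19). This value rests on the score and the gate: it was 0.33 when Tcim was left out of the score, −0.16 without Krt14 and −0.04 with the 5 genes weighted equally, and the cause was not tested. With Col1a2 and Dcn allowed up to 0.5% of UMIs, a limit chosen after seeing the data, members were 13.9% of cells without treatment and 6.37% after MSA-2 (log2 ratio −1.12). Among the barcodes that missed the gate by the Col1a2 and Dcn step alone, 94 of 1046 untreated (8.99%, 7.32–10.9%) and 39 of 3947 MSA-2 barcodes (0.988%, 0.704–1.35%) reached the member threshold.

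Members were slightly shallower than the other gated cells. The median depth was 21762 UMIs in members and 24134 in the others of the untreated library, and 19973 and 24784 in the MSA-2 library. Mitochondrial UMIs took a median of 2.88% in members and 2.64% in others without treatment, and 3.26% and 2.91% after MSA-2. Barcodes that a doublet caller marked were 4 of 524 untreated and 2 of 229 MSA-2 members (0.763% and 0.873%), against 1.32% and 1.96% of the other gated cells.

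Among the genes that chose the members, Tcim was the most abundant, at 445 CPM in untreated members (433–456) against 95.5 in the other gated cells, and at 370 CPM (354–387) against 74.4 after MSA-2. Car6 stood at 179 against 33.7 CPM in the untreated library and at 168 against 61.5 CPM after MSA-2. Areg stood at 89.8 CPM (84.6–95.1) against 16.5 without treatment and at 95.5 CPM (87.3–104) against 16.1 after MSA-2.

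Nppb and Krt14 differed most between the libraries within the members. Members held Nppb at 81.2 CPM (76.3–86.3) without treatment and at 202 CPM (190–214) after MSA-2, a 2.48-fold difference (2.28–2.71), and at 10.8 and 23.6 CPM in the other gated cells (2.19-fold). Members held Krt14 at 115 CPM (109–121) without treatment and at 33.5 CPM (28.7–38.9) after MSA-2, 0.292-fold (0.248–0.341). The others held Krt14 at 16.1 and 9.24 CPM (0.574-fold). A single untreated barcode, described below, gave 241 of the Krt14 UMIs, and without it untreated members held 96.2 CPM (90.9–102). The order of the 5 genes by CPM therefore changed, with Krt14 above Nppb in untreated members and far below it after MSA-2. Car6 was 0.940-fold (0.869–1.02) between the libraries within members and 1.82-fold (1.75–1.91) in the others. Over all gated cells, which the score did not choose, Car6 stood at 48.7 CPM without treatment and 68.8 CPM after MSA-2. Members of both libraries were cut at the same threshold on the sum of the 5 genes. Levels of these genes in members and in the others therefore depend on that cut. Whether members and the others differed in their change between the libraries cannot be read from these folds.

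**Figure D2:**
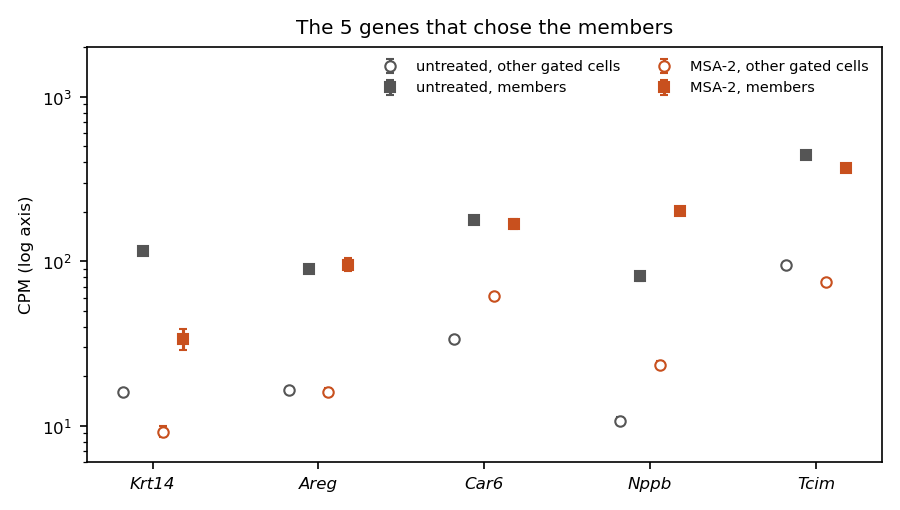
CPM (log axis) of the 5 genes that chose the members, in members (squares) and in other gated cells (circles) of the untreated (grey) and MSA-2 (orange) libraries, with exact 95% intervals of counting error. Krt14 falls from 115 to 33.5 CPM and Nppb rises from 81.2 to 202 CPM between the members of the libraries, while Areg stands at 89.8 and 95.5 CPM.

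Single members rarely held all 5 genes. Tcim was detected in 92.9% of untreated and 89.5% of MSA-2 members, Car6 in 61.8% and 62.0%, Areg in 44.5% and 45.0%, Krt14 in 46.6% and 26.6%, and Nppb in 31.9% and 58.5%. At least 1 UMI of 4 or 5 of the genes was found in 150 untreated (28.6%) and 67 MSA-2 members (29.3%), all 5 in 34 and 16, and a single gene in 86 and 33. By the gene with most UMIs, 317 untreated members (60.5%, 56.2–64.7%) and 125 MSA-2 members (54.6%, 47.9–61.2%) were led by Tcim, 76 and 30 by Car6, 50 and 14 by Areg, 37 and 49 by Nppb, and 29 and 3 by Krt14, with ties in the rest. Nppb-led cells thus made up 7.06% (5.02–9.60%) of untreated and 21.4% (16.3–27.3%) of MSA-2 members. Gated cells of 1 library share their source but differ in depth, and the part of depth was not tested. Across them, Spearman correlations between the shares of gene pairs ran from 0.07 to 0.25 in the untreated library (n = 4752 cells). In the MSA-2 library they ran from 0.01 to 0.28 (n = 2780 cells), the lowest being Car6 with Tcim. The highest pairs also held Car6, with Krt14 in the untreated library and with Nppb after MSA-2, and Areg pairs in the untreated library ran from 0.07 to 0.13.

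Immune barcodes served as a background for these shares of cells, and the source of their UMIs of the 5 genes was not tested. In immune barcodes, with a median of 5425 UMIs without treatment and 3711 after MSA-2, Tcim was detected in 11.9% and 5.47%, Car6 in 4.08% and 3.41%, Krt14 in 1.92% and 0.854%, and Nppb in 1.69% and 2.06%. The other gated cells had Tcim in 62.7% and 57.4%, Car6 in 32.1% and 44.2%, Krt14 in 17.6% and 11.9%, and Nppb in 13.2% and 23.6%, at their median depths of 24134 and 24784 UMIs. In CPM, which is scaled to depth, the other gated cells held 16.1 and 9.24 CPM of Krt14 against 4.51 and 1.85 CPM in immune barcodes. Areg was an exception: immune barcodes held it at 31.5 CPM in the untreated library and 92.0 CPM after MSA-2 (in 6.53% and 7.84% of barcodes), above the 16.5 and 16.1 CPM of the other gated cells (19.8% and 20.9% of cells).

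To see whether the genes travelled together, each was measured in cells ranked by the other 4, so that the ranking did not use it. Krt14 stood at 57.1 CPM in the top 10% ranked without it and at 23.1 CPM in the rest of the untreated gated cells (2.47-fold, 2.27–2.69), and at 15.2 against 10.5 CPM after MSA-2 (1.45-fold, 1.15–1.80). Areg stood at 40.8 against 22.1 CPM without treatment (1.84-fold, 1.67–2.03) and at 55.4 against 18.8 CPM after MSA-2 (2.95-fold, 2.59–3.34). Nppb was 2.19-fold (1.97–2.43) and 1.96-fold (1.72–2.22) higher.

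In these rankings the folds of Car6 and Tcim were smaller, and Tcim was the most abundant of the 5 genes in gated cells of both libraries. Car6 stood at 65.8 against 46.8 CPM in the untreated library (1.40-fold, 1.30–1.51) and at 75.2 against 68.3 CPM after MSA-2 (1.101-fold, 0.985–1.23). Tcim stood at 173 against 127 CPM without treatment (1.36-fold, 1.30–1.42) and at 90.6 against 95.3 CPM after MSA-2 (0.9504-fold, 0.884–1.02). After MSA-2, neither Car6 nor Tcim was higher beyond counting error in cells ranked by the other 4 genes. The cells ranked without Tcim shared 393 of 753 with the members (52.2% of each set), against 603 to 677 for the other 4 rankings.

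**Figure D3:**
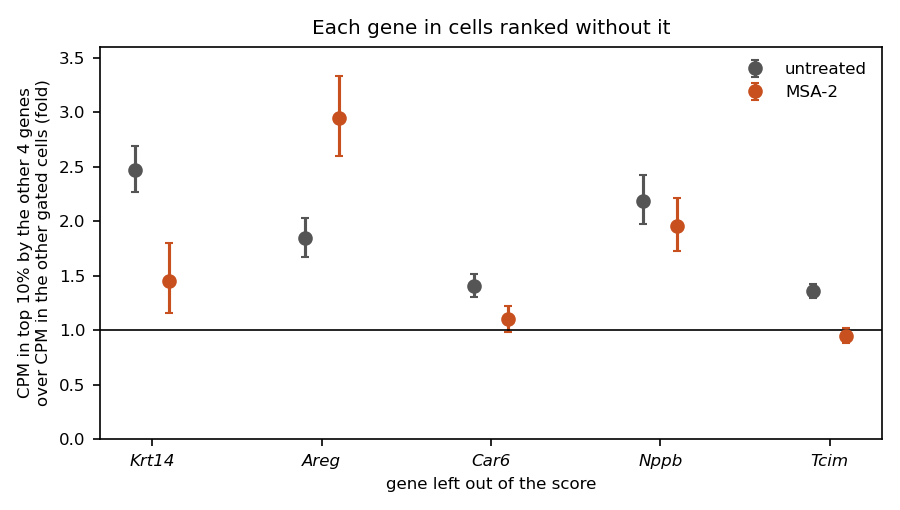
Fold difference in CPM of each gene between the top 10% of gated cells ranked by the other 4 genes and the remaining gated cells, per library, with exact 95% intervals of counting error; the line marks no difference. Areg after MSA-2 is highest at 2.95-fold, and Tcim (0.9504-fold) and Car6 (1.101-fold) after MSA-2 lie at the line.

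The label names a keratin of stratified epithelium, so keratinocyte genes were checked. None of the 24 genes of a basal and squamous keratinocyte list, which leaves out Krt14, reached 50 CPM in members or in other gated cells. The list summed to 153 CPM in untreated members against 51.9 CPM in the others, but to 51.0 against 42.2 CPM after MSA-2. A single untreated barcode carried much of the first sum, and without it the list summed to 73.1 CPM (68.5–77.9).

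That barcode had the highest score of all, 246 per 10000 UMIs against 27.3 for the next in its library. Of its 9830 UMIs, 241 were Krt14, 341 Krt16, 125 Krt17, 198 Ly6d, 120 Lgals7, 51 Krt6a and 22 Krt5, genes of stratified squamous epithelium, and 5 were Vim. It held 16.3% of the Krt14 UMIs of the untreated members. Without it, Krt14 in untreated members was 96.2 CPM (90.9–102), Krt16 6.94 CPM, Krt17 0.234 CPM, and Krt5 and Krt6a had 0 UMIs (up to 0.288 CPM). With it left out, an alternative chosen after seeing the data, the ratio of member shares stayed at −0.42 (log2), and 14 features were higher and 3 lower in members in both libraries, against 14 and 2 with it.

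Other epithelial programs were near zero. The epidermis differentiation list summed to 20.3 and 15.02 CPM in members, mostly Krt10. The simple epithelium list (Krt8, Krt18, Krt19, Epcam, Cdh1 and others) summed to 28.2 and 33.7 CPM in members, of which the junction scaffold gene Tjp1 gave 24.7 and 32.7 CPM. The intestinal list summed to 0.779 and 1.35 CPM, with Cdx2 and Hnf4a at 0 in members of both libraries. Members held Vim at 3422 CPM without treatment and at 2738 CPM after MSA-2, and the mesenchymal list had medians of 0.01 and −0.01 (log2) against the other gated cells. Apart from that barcode, the members thus carried Krt14 with almost none of its squamous partner genes, on a Vim-rich background shared with the other gated cells. The label is used here for the genes of the score and not for a squamous cell type.

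Members were next compared with the other gated cells of the same library over features with at least 50 CPM in either group and 50 UMIs in both together, without the 5 genes of the score. The 1.5-fold limit was applied with 1 CPM added to both values. Since cells of 1 library share their source, the comparison describes these libraries. Of 2978 features that passed in both libraries, 14 were at least 1.5-fold higher in members in both (0.47%) and 2 at least 1.5-fold lower in both (0.0672%). Across 23 alternatives these counts ran from 9 to 149 and from 1 to 43. In the untreated library alone, 1.3% were higher and 0.544% lower, and in the MSA-2 library 1.34% and 0.548%. No feature passed 1.5-fold in opposite directions, 77.5% had the same sign, and the Spearman correlation of log2 ratios across features was 0.73, though features are not independent replicates and the members of both libraries were chosen by 1 score.

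Among features higher in members in both libraries, the first ranked was Igfbp4, which encodes a secreted protein that binds insulin-like growth factors. It stood at 68.9 against 28.1 CPM in the untreated library (2.45-fold, 2.27–2.64) and at 85.7 against 42.7 CPM after MSA-2 (2.01-fold, 1.81–2.22). Tmem176b, which encodes a membrane protein, stood at 103 against 56.3 CPM and, after MSA-2, at 66.2 against 26.1 CPM (2.53-fold, 2.25–2.85). Next came the nuclear long non-coding RNA Neat1, at 234 against 133 CPM and 282 against 164 CPM.

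Others of the 14 were the following. Hbegf, a ligand of EGFR like Areg, stood at 153 against 85.5 CPM in the untreated library (1.79-fold, 1.70–1.87) and at 152 against 98.3 CPM after MSA-2 (1.55-fold, 1.44–1.67). Plk2, a kinase induced by serum and stress, stood at 397 against 240 CPM and at 380 against 228 CPM. The glucose transporter gene Slc2a1 stood at 186 against 120 CPM and at 194 against 118 CPM. Mt2, which encodes a metal-binding metallothionein, stood at 320 against 205 CPM without treatment and at 1147 against 623 CPM after MSA-2. The rest were Ciapin1, Pdlim1, Ier3, Dusp5, AA467197, Ier2 and Nedd4l.

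Just under that limit in 1 library were Atf3, Gadd45a, Hmox1, Col1a1, Ugdh and Cryab. Cryab, a small heat shock protein gene, stood at 72.9 against 49.5 CPM in the untreated library (1.47-fold, 1.37–1.58) and at 131 against 51.9 CPM after MSA-2 (2.53-fold, 2.33–2.75). The heme oxygenase gene Hmox1 was the reverse, at 103 against 51.4 CPM (2.01-fold, 1.89–2.13) and at 123 against 83.5 CPM (1.47-fold, 1.35–1.596).

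Among features that passed the filter in both libraries, the lowest was Tex101, which encodes a surface glycoprotein best known from germ cells. It stood at 34.4 against 103 CPM in the untreated library (0.333-fold, 0.302–0.366) and at 22.9 against 69.2 CPM after MSA-2 (0.331-fold, 0.274–0.397). Gng11, a G protein gamma subunit gene, was lower at 815 against 1300 CPM (0.627-fold, 0.615–0.640) and at 573 against 1026 CPM (0.558-fold, 0.538–0.579). The protocadherin genes Pcdh9 and Pcdh19, the imprinted RNA H19, the collagen gene Col6a2 and the chemokine gene Cxcl9 followed among the lowest. With Col1a2 and Dcn allowed up to 0.5% of UMIs, 9 features were lower in both libraries and Tex101 was not among them, while Gng11 was. Conversely, Gng11 was not among the lower features with tightened gate limits, without Krt14 or Car6 in the score, or with means of cells, while Tex101 was.

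**Figure D4:**
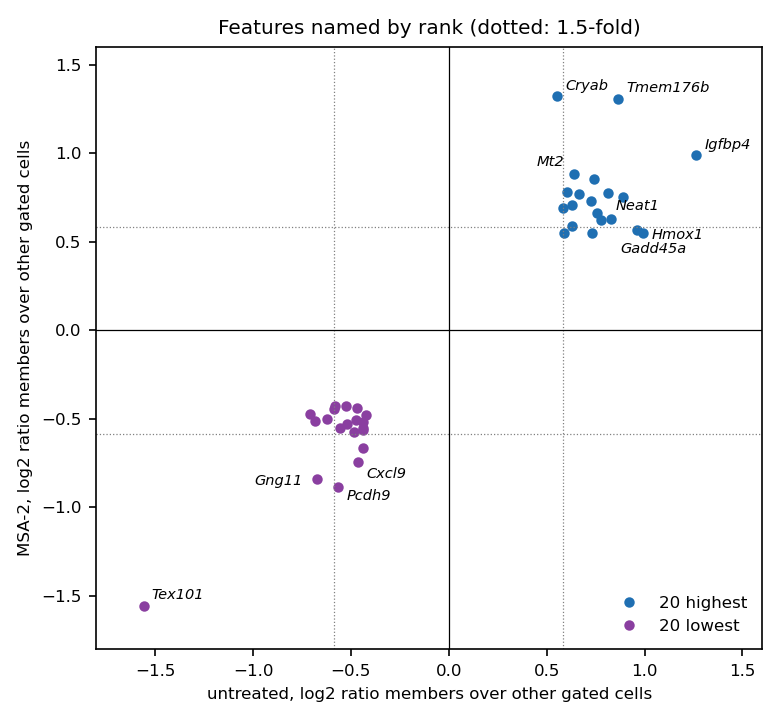
Log2 ratio (1 CPM added) of members over other gated cells in the untreated (x axis) and MSA-2 (y axis) library for the 20 highest and 20 lowest ranked features, with dotted lines at 1.5-fold. Igfbp4 lies at 1.26 and 0.99, and Tex101 at −1.56 and −1.55.

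Gene lists were read as medians of log2 ratios of members over other gated cells, beside a median of −0.03 (untreated) and −0.02 (MSA-2) for all features. A list of genes that ERK signalling induces is called ERK feedback here, although not all of its genes restrain ERK. It had medians of 0.50 and 0.45 (0.09 to 0.71 and 0.06 to 0.71 across 23 alternatives), with 7 of 14 genes passing the filter in each library. Of these, 3 in the untreated library (Ier3, Dusp5 and Errfi1) and 2 in the MSA-2 library (Ier3 and Dusp5) were at least 1.5-fold higher. Errfi1, which encodes an inhibitor of EGFR itself, stood at 159 against 75.7 CPM without treatment (2.09-fold, 1.99–2.20) and at 97.8 against 71.2 CPM after MSA-2 (1.37-fold, 1.25–1.51). Ier3 stood at 651 against 384 CPM and at 851 against 536 CPM. Fosl1, Dusp6 and Spry2, which also respond to ERK, differed by no more than 1.14-fold in either library.

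Among EGFR ligands outside the score, Ereg (epiregulin) stood at 22.0 against 15.5 CPM in the untreated library and at 79.7 against 53.9 CPM after MSA-2 (1.48-fold, 1.33–1.64). Nrg1, a ligand of related receptors, stood at 31.2 against 24.3 CPM and at 45.4 against 23.7 CPM. The receptor gene Egfr was low in members, at 6.54 and 13.9 CPM, against 10.6 and 16.2 CPM in the others. Adam17, the protease that sheds Areg and Hbegf, was close to even, at 52.7 against 57.4 CPM and at 67.6 against 69.3 CPM. Erbb4 had 0 UMIs in members of both libraries, and Tgfa, Egf, Epgn and Btc were all under 1.4 CPM.

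The immediate-early and AP-1 list had medians of 0.29 and 0.32, with 13 of 14 and 13 of 13 passing genes above 0. Fos, which encodes a subunit of the AP-1 factor, stood at 1959 against 1581 CPM in the untreated library (1.24-fold, 1.22–1.26) and at 1205 against 965 CPM after MSA-2 (1.25-fold, 1.22–1.28). Egr1 stood at 740 against 537 CPM (1.38-fold, 1.35–1.41) and at 635 against 383 CPM (1.65-fold, 1.595–1.72). Most genes of this list were thus higher by small folds, and 2 and 3 of them reached 1.5-fold. When Tcim was left out of the score, the medians were −0.08 and −0.27, and with the 5 genes weighted equally they were 0.05 and −0.05. The sign thus depended on the weight of the genes in the score.

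Stress lists were also shifted upward. The ATF4 list, which responds to amino acid shortage, had medians of 0.28 and 0.26. Its gene Trib3 stood at 113 against 67.0 CPM without treatment (1.68-fold, 1.59–1.78) and at 131 against 94.2 CPM after MSA-2 (1.39-fold, 1.28–1.501), whereas the serine synthesis genes Phgdh and Psat1 were lower, at 0.906-fold and 0.869-fold without treatment and 0.877-fold and 0.856-fold after MSA-2. The hypoxia list had medians of 0.28 and 0.22: the angiogenic factor gene Vegfa stood at 179 against 114 CPM (1.56-fold, 1.49–1.63) and at 128 against 97.1 CPM (1.32-fold, 1.22–1.43), but the glycolysis genes Ldha, Pgk1, Eno1 and Aldoa differed by at most 1.14-fold. The p53 list had medians of 0.31 and 0.21 (0.01 to 0.57 and 0.14 to 0.40 across the alternatives), with 5 and 7 of 12 genes passing. The cell cycle inhibitor gene Cdkn1a stood at 149 against 101 CPM (1.48-fold, 1.41–1.55) and at 183 against 128 CPM (1.43-fold, 1.34–1.53). Bax (1.02-fold and 0.984-fold) and Phlda3 (1.02-fold and 1.08-fold) were near even. Among p53 genes under the filter in both libraries, Ccng1, Zmat3, Sesn1 and Trp53inp1 were lower in members and Gdf15 higher. Of these differences, only those of Sesn1 (0.774-fold, 0.673–0.887) and Gdf15 (1.75-fold, 1.30–2.32), both without treatment, went beyond counting error.

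Proliferation lists pointed the other way. All 7 and all 8 passing S phase genes were below 0 (medians −0.23 and −0.20), and the G2 and mitosis list had medians of −0.24 without treatment and −0.62 after MSA-2, where 5 of 9 genes were at least 1.5-fold lower. Top2a, a topoisomerase of dividing cells, stood at 190 against 247 CPM without treatment (0.767-fold) and at 188 against 289 CPM after MSA-2 (0.651-fold, 0.610–0.694). Ube2c, which drives exit from mitosis, stood at 208 against 243 CPM and at 164 against 273 CPM.

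The share of cycling cells, with at least 3 of 10 cycling markers after each cell was thinned to 8000 UMIs, was lower in members. It was 48.7% (44.3–53.04%) in members and 55.6% (54.1–57.1%) in the others of the untreated library, and 64.6% (58.1–70.8%) and 74.5% (72.8–76.2%) in the MSA-2 library. With all UMIs the shares were 72.3% and 78.9%, and 86.9% and 91.3%. Conversely, members were 12.5% of non-cycling and 9.78% of cycling gated cells in the untreated library, and 11.1% and 7.22% in the MSA-2 library. Among non-cycling cells only, most of the upward shifts given above were smaller. The ERK feedback medians were 0.32 and 0.22 there, against 0.50 and 0.45 in all gated cells, and the immediate-early medians 0.17 and 0.19. After MSA-2 the hypoxia median was 0.05 and the ATF4 median 0.10 (0.34 and 0.33 without treatment), and the p53 medians were 0.17 and 0.23.

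Interferon and antigen presentation genes were slightly lower in members by their medians. The interferon list had medians of −0.09 and −0.12, with 14 of 18 and 20 of 28 passing genes below 0 and no gene at 1.5-fold in either direction. The MHC class I list had medians of −0.14 and −0.10, with 8 of 9 genes below 0 in each library. The interferon chemokine gene Cxcl10 stood at 2085 against 2259 CPM without treatment and at 4306 against 4056 CPM after MSA-2. The interferon medians turned positive, 0.14 and 0.11, when Car6 was left out of the score. Those of the MHC class I list did too, at 0.0047 and 0.044.

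The inflammatory and NF-kB list was nearly even in the untreated library (0.11) and had all 11 passing genes above 0 after MSA-2 (0.19). Cxcl1, a chemokine gene for neutrophils, stood at 1097 against 1047 CPM in the untreated library (1.05-fold, 1.03–1.07) and at 3998 against 2558 CPM after MSA-2 (1.56-fold, 1.54–1.59). Ptgs2, which encodes the prostaglandin enzyme cyclooxygenase-2, stood at 232 against 171 CPM and at 367 against 235 CPM (1.56-fold, 1.49–1.64). Ccl2, a monocyte chemokine gene, was lower in untreated members, at 853 against 1199 CPM (0.712-fold, 0.698–0.726), and higher in MSA-2 members, at 2018 against 1716 CPM (1.18-fold, 1.15–1.20). Without Tcim in the score, the list medians were −0.22 and −0.10.

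Lists for other programs moved little or unevenly. CREB targets had medians of 0.18 and 0.22 (−0.17 and −0.52 without Tcim), and YAP and TEAD targets −0.02 and 0.04. Wound and invasion genes had medians of 0.24 and 0.07 (−0.32 after MSA-2 without Tcim). In the last list, the galectin gene Lgals3 stood at 1089 against 633 CPM in the untreated library (1.72-fold, 1.69–1.75) and at 800 against 587 CPM after MSA-2 (1.36-fold, 1.32–1.41). Of the Wnt targets only Sox4 and Cd44 passed the filter, both within 1.19-fold, and no other natriuretic peptide or carbonic anhydrase gene passed, the most abundant being Car13 at 24.9 and 43.1 CPM in members.

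Markers of other cell types were measured beside these values. The immune list summed to 588 against 675 CPM in untreated and 629 against 558 CPM in MSA-2 members and others, with Cd74 (141 CPM) and S100a9 (254 CPM) as its most abundant genes in members. Igkc, an antibody light chain gene, stood at 10.4 against 106 CPM in the untreated library (0.0989-fold, 0.0828–0.117) and at 5.39 against 17.6 CPM after MSA-2. The fibroblast list summed to 1159 against 1332 CPM and to 878 against 939 CPM, with medians of 0.52 over 4 and 0.04 over 3 passing genes (0.17 to 0.65 and −1.07 to 0.17 across 23 alternatives). Within it Col1a1 stood at 88.6 against 52.97 CPM and 102 against 69.2 CPM, whereas Col3a1 stood at 732 against 1017 CPM and 324 against 434 CPM. Postn, for a secreted matrix protein, stood at 95.7 against 53.2 CPM (1.80-fold, 1.69–1.91) and 25.2 against 18.3 CPM, and Dcn at 208 against 167 CPM and 356 against 345 CPM. The endothelial and mural list summed to 5.14 and 8.67 CPM and the skeletal muscle list to 1.25 and 0.578 CPM in members. The part of these genes in the differences above was not tested.

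The members were not uniform, and for immediate-early and interferon genes the subsets by leading gene differed more from each other than members did from other cells. Tcim-led members had the highest immediate-early sums, 14541 CPM without treatment and 12653 CPM after MSA-2, against 9782 and 6793 CPM in the other gated cells. Car6-led members had the lowest, 6527 and 4766 CPM. Interferon genes were also lowest in Car6-led members, at 1848 and 5466 CPM, against 5441 and 12416 CPM in Tcim-led members and 4957 and 10040 CPM in the others. Areg-led untreated members were close to the Tcim-led for these genes, at 5533 CPM. Car6-led members were also the deepest, with medians of 31896 and 31019 UMIs against 20437 and 16915 in Tcim-led members, and the part of depth was not tested.

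The 50 Areg-led members of the untreated library stood out in another way. Their ERK feedback sum was 3209 CPM, against 1478 CPM in the other gated cells and 1356 to 2330 CPM in the other subsets. Hbegf stood at 248 CPM, Ier3 at 1200 CPM and Dusp5 at 130 CPM in them. The G2 and mitosis sum was 584 CPM and Mki67 19.5 CPM, against 1526 and 69.2 CPM in the other gated cells. The 14 Areg-led and 3 Krt14-led members of the MSA-2 library were too few to be summed.

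Igfbp4 was lowest in the Areg-led and Tcim-led subsets. It stood at 183 CPM in the 29 Krt14-led untreated members, at 157 CPM in the 49 Nppb-led MSA-2 members, at 101 and 92.4 CPM in Car6-led members, and at 79.2 CPM in the 37 Nppb-led untreated members. In Areg-led and Tcim-led untreated members it stood at 37.1 and 46.9 CPM, against 28.1 CPM in the other gated cells. Tmem176b, by contrast, was highest in Tcim-led members, at 134 CPM without treatment and 72.7 CPM after MSA-2. Among untreated subsets Tex101 was lowest in Tcim-led members (22.5 CPM) and stood at 93.4 CPM in Krt14-led members, near the 103 CPM of the other gated cells. After MSA-2 it stood at 20.3 CPM in Car6-led, 21.7 CPM in Tcim-led and 32.5 CPM in Nppb-led members.

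**Figure D5:**
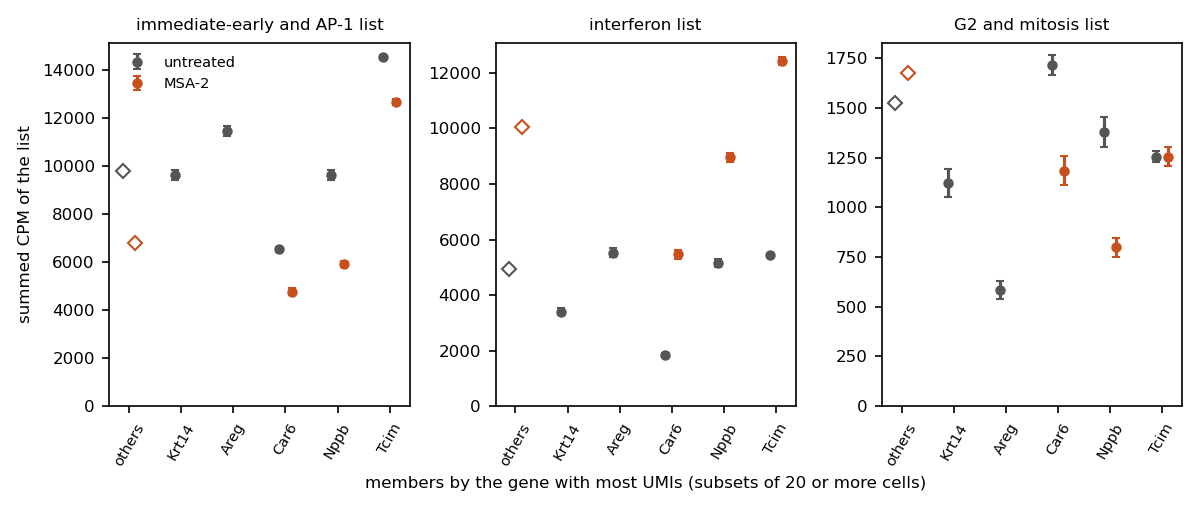
Summed CPM of the immediate-early and AP-1, interferon, and G2 and mitosis lists in the other gated cells (open diamonds) and in members split by the gene with most UMIs (circles), per library, with exact 95% intervals of counting error for subsets of 20 or more cells. Tcim-led members are highest for immediate-early genes (14541 and 12653 CPM), Car6-led members lowest for interferon genes (1848 and 5466 CPM), and Areg-led untreated members lowest for G2 and mitosis genes (584 CPM).

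The named genes shown here changed over the ranking below the threshold as well. Over 10 equal parts of the ranked gated cells, Igfbp4 went from 12.9 CPM in the lowest to 49.9 in the ninth and 69.4 CPM in the highest part of the untreated library, and from 24.9 to 64.6 and 81.1 CPM after MSA-2. Hbegf in the untreated library was 71.8 CPM in the lowest part, 71.6 in the fifth, 92.1 in the sixth and 156 CPM in the highest, and after MSA-2 it went from 73.3 to 147 CPM. Tex101 went from 165 to 32.3 CPM in the untreated library, and after MSA-2 from 60.02 CPM through a maximum of 98.7 CPM in the third part to 23.5 CPM. Among the list sums, ERK feedback went from 1377 CPM in the lowest part through 1185 in the third to 2119 CPM in the highest without treatment and from 1433 through 1316 to 1979 CPM after MSA-2, and ATF4 from 2636 to 3289 CPM and from 2514 to 2946 CPM. The untreated hypoxia sum went from 3194 to 4281 CPM and the p53 sum from 1416 through 1167 in the third part to 1697 CPM. Other sums were less graded. In the untreated library the immediate-early sum was 10475 CPM in the lowest part, 8510 CPM in the third and 12215 CPM in the highest, the G2 and mitosis sum 1165, 1633 and 1241 CPM, and the S phase sum 778, 989 and 789 CPM. After MSA-2 the inflammatory sum lay between 7574 and 8799 CPM in the lower 9 parts and was 10626 CPM in the highest. The lowest part was also the shallowest, with medians of 17440 and 18629 UMIs.

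Members neighboured each other more often than other cells did. Among the 15 nearest cells in 30 principal components computed without the 5 genes, 25.2% of the neighbours of untreated members were members, against 7.73% for other cells, and 19.5% against 5.35% after MSA-2. The genes of the sets compared next were left out of the components as well. The top 10% of gated cells by the hypoxia list had 43.9% and 49.2% of neighbours of their own kind, those ranked by Aspn, Enpp2 and Csmd3 43.02% and 9.93%, and those with a UMI of Chrm3 or Rbfox1 2.98% and 30.7%. These sets differ in size, at 11.4% and 7.52%, 14.9% and 1.62%, and 2.17% and 17.4% of gated cells. At least 8 of the 15 neighbours were members for 7.82% of untreated and 0.873% of MSA-2 members, against 38.6% and 47.8% for the hypoxia-ranked cells, 39.1% and 0% for the Aspn, Enpp2 and Csmd3 cells, and 0% and 20.7% for the Chrm3 or Rbfox1 cells.

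Overlap with other tumor cell states differed by library. Over both, the members shared 102 cells with the 753 ranked by hypoxia genes (13.5% of each set), 51 with the 753 ranked by Aspn, Enpp2 and Csmd3 (6.77% of each), and 39 with the 587 cells that had any UMI of Chrm3 or Rbfox1 (5.18% of members, 6.64% of those cells). The hypoxia overlap was 16.4% of untreated and 6.99% of MSA-2 members, where hypoxia-ranked cells were 11.4% and 7.52% of gated cells, so it was above that share in the untreated library. Cells ranked by Aspn, Enpp2 and Csmd3 were 8.97% of untreated and 1.75% of MSA-2 members, against 14.9% and 1.62% of gated cells. Cells with a UMI of Chrm3 or Rbfox1 were 2.48% and 11.4% of members, against 2.17% and 17.4% of gated cells. Csmd3 was lower in untreated members, at 27.4 against 56.8 CPM (0.483-fold, 0.432–0.538).

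Between the libraries, members differed much as the other gated cells did. Of 3432 features that passed within members, 8.19% were at least 1.5-fold higher after MSA-2 and 8.25% at least 1.5-fold lower, against 6.76% and 7.85% of 3477 features in the others. The log2 ratios of both groups had a Spearman correlation of 0.94 across 3296 features and medians of −0.04 each. In members, 21 of 28 passing interferon genes were at least 1.5-fold higher, none lower, with a median of 1.35, and in the others 20 of 27 with a median of 1.38. Rsad2, which encodes the antiviral enzyme viperin, went from 180 to 967 CPM in members (5.39-fold, 5.13–5.66), and at 168 and 1018 CPM in the others. The MHC class I list had medians of −0.38 and −0.40, with 1 of 10 passing genes at least 1.5-fold lower (Psmb9) and 1 at least 1.5-fold higher (Nlrc5) in each group.

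The inflammatory list was higher after MSA-2 in both groups, and whether the groups differed was not tested. All 11 passing genes of the list were at least 1.5-fold higher in MSA-2 members (median 1.26), against 8 of 10 in the others (median 1.08). These medians rest on different sets of genes. The member median was the value of Il1b, which went from 37.5 to 90.9 CPM in members and from 38.2 to 83.5 CPM in the others. The part of free RNA from immune cells in this list was not tested. Cxcl1 was 3.65-fold higher in members (3.57–3.72) and 2.44-fold in the others, and Ccl2 2.37-fold (2.30–2.43) and 1.43-fold. Csf3, which encodes the neutrophil growth factor G-CSF, went from 0.312 to 50.3 CPM in members and from 0.215 to 14.6 CPM in the others. Csf2, for GM-CSF, went from 0.0779 to 14.2 CPM in members and from 0.260 to 4.19 CPM in the others. Other genes of the list were alike or went the other way: Csf1 was 1.85-fold and 1.84-fold higher, Il6 4.07-fold in members and 5.01-fold in the others, and Il33 6.36-fold and 7.37-fold.

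The G2 and mitosis list had a median of −0.23 in members and 0.16 in the others, with no gene at 1.5-fold in either, and single genes differed from these signs (Mki67 0.15 in members, Ccnb2 −0.29 in the others). The difference between the groups was not tested. The immediate-early list had medians of −0.38 and −0.48, with 6 of 14 and 6 of 13 passing genes at least 1.5-fold lower and 1 and 0 at least 1.5-fold higher, and the CREB list −0.62 and −0.81, with 3 of 6 and 3 of 5 lower. The hypoxia list had medians of −0.28 in members and −0.15 in the others. Epiregulin, unlike Areg, was higher after MSA-2 in both groups, 3.62-fold (3.10–4.22) in members and 3.48-fold in the others.

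The features with the largest ratios between the libraries included genes of neutrophils and of antigen-presenting cells. S100a8 and S100a9, neutrophil genes, went from 1.79 to 184 CPM and from 3.74 to 254 CPM in members, and from 0.914 to 141 CPM and from 1.77 to 221 CPM in the others. The MHC class II genes H2-Eb1 and Cd74 went from 108 to 3.08 CPM and from 141 to 8.47 CPM in members, and from 104 to 4.42 CPM and from 144 to 11.3 CPM in the others. Their levels in members followed those in the other gated cells, and the part of free RNA from immune cells was not tested.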

How the data were processed

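Gene expression was measured in 2 libraries of dissociated MC38 tumors, untreated and MSA-2. The raw UMI counts are as the authors deposited them; their processing notes name Cell Ranger 7.0.0 with mm10 and Seurat 4.3.0, and the file header names Cell Ranger 7.0.1. Members and gene lists were chosen with earlier results of these data known. Counts were summed over cells and scaled to CPM. Log2 ratios had 1 CPM added, and folds of single genes are ratios of CPM. A feature passed with at least 50 CPM in either group and 50 UMIs in both together. List medians needed 3 passing genes, over 26 lists. Genes were named when among the 20 highest or lowest log2 ratios, ranked by the value closer to 0 of both libraries, among the 10 highest or lowest between libraries, or on a list. Doublets were called by Scrublet in scanpy 1.11.5, and kept. Neighbours used 2000 variable features and 30 principal components. Intervals are Clopper-Pearson for shares, Poisson for sums and conditional binomial for ratios. The ratio procedure was also run on simulated data, and the outcome is not given here. With 1 library per condition no test between conditions was run. Each alternative changed the score, the gate, the filter or the scaling. The alternative with at least 10 UMIs also dropped the CPM limit, and the tightened gate changed its limits together. Python 3.11.15, numpy 2.4.6, scipy 1.17.1, anndata 0.12.19, scikit-learn 1.9.0 and matplotlib 3.10.9 were used.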

Additional observations from a re-analysis of the deposited data

Results flagged for a closer look

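In immune barcodes, which lie outside the gated cells, Areg and Nppb were higher after MSA-2 with intervals of counting error that did not overlap. Barcodes with at least 2000 UMIs and immune genes at 0.1% of UMIs or more held Areg at 92.0 CPM (87.3–96.9) after MSA-2 and at 31.5 CPM (29.7–33.4) without treatment, with 1439 and 1134 UMIs in 248 and 360 barcodes. They held Nppb at 5.37 CPM (4.28–6.65) after MSA-2 and at 3.53 CPM (2.95–4.20) without treatment. Of the other genes of the score in these barcodes, Car6 was at 8.95 CPM after MSA-2 and 8.34 CPM without treatment, while Tcim (20.1 and 31.9 CPM) and Krt14 (1.85 and 4.51 CPM) were lower after MSA-2. This did not hold in the barcodes that missed the gate by Col1a2 and Dcn alone, where Areg was at 6.43 CPM after MSA-2 and 26.9 CPM without treatment, and Nppb at 19.5 and 20.1 CPM. Each condition has 1 library, so neither difference was tested, and the cells that carried this RNA were not identified.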

How the results depend on the processing

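The log2 ratio of member shares (−0.42) was the same within its interval under 10 of 18 alternatives. It was −0.15 for the top 20%, −0.16 without Krt14, −0.68 without Nppb and −0.041 with equal weights, and turned to 0.33 without Tcim; the cause was not tested. Ranking within each library gave 0.00061 by construction. Under alternatives chosen after seeing the data it was −1.12 with Col1a2 and Dcn under 0.5% of UMIs and −1.17 with Col1a2 alone under 0.1%.

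The count of features higher in both libraries (14) stayed within 1.5 times under 17 of 23 alternatives. It was 34 for the top 5%, 9 for the top 20%, 36 without Car6, 25 without Nppb, 22 without Tcim, and 149 with at least 10 UMIs and no CPM limit. Of the 14 features, 5 were among those higher with equal weights, 6 without Tcim, 7 for the top 20%, 8 without Areg and 8 without Car6. The count lower in both (2) was 8 for the top 5%, 6 with a higher UMI minimum and 6 with tightened gate limits. It was 5 without Areg, 25 without Tcim, 6 with equal weights and 9 under each loosened Col1a2 limit. Without Krt14 it was 1, as with means of cells. With at least 10 UMIs and no CPM limit it was 43, and with depth matched 5. The causes were not tested.

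The interferon median between libraries in members (1.35) was 1.19 and 1.18 under the loosened Col1a2 limits and 1.21 with 10 CPM added. It kept its sign under the other 19 alternatives, with a highest value of 1.47.

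These medians of members over other gated cells changed sign, untreated first where both did. Without Tcim: immediate-early −0.083 and −0.27, CREB −0.17 and −0.52, inflammatory −0.22 and −0.10, and wound −0.32 after MSA-2. Without Car6: interferon 0.14 and 0.11, MHC class I 0.0047 and 0.044. With equal weights: S phase 0.0051 and inflammatory −0.069 without treatment, and after MSA-2 immediate-early −0.052, CREB −0.19 and wound −0.19. Untreated interferon was 0.037 for the top 5% and 0.017 with means of cells, and after MSA-2 it was 0.0065 with the tightened gate. After MSA-2, CREB was −0.014 for the top 20%, −0.015 and −0.052 under the loosened Col1a2 limits, and wound was −0.018 with the higher UMI minimum and −0.047 with depth matched. The cause was not tested. Lists whose median lay near 0 changed sign too: YAP and TEAD kept its sign under 17 and 21 of 23 alternatives, mesenchymal under 13 and 14, untreated immune cells under 10, and fibroblasts after MSA-2 under 17 (down to −1.07). The ERK feedback, hypoxia, p53, ATF4 and G2 and mitosis medians kept their sign in each library under all 23 alternatives, but not their size. ERK feedback moved in 14 untreated and 7 MSA-2 alternatives, down to 0.094 and 0.063, and untreated p53 in 15, down to 0.011; the cause was not tested.

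With 1 library per condition, animals and handling cannot be told apart from MSA-2. Members were chosen by 5 genes, of which Tcim gave 48.9% and 42.6% of their UMIs, and the gate removed unequal parts of the libraries. Genes under 50 CPM were not ranked, and the lowest members rest on 6 and 5 UMIs.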
